A study of Mus musculus with 10 samples.

Results

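The genes described here are 10 components of the receiving side of bone morphogenetic protein (BMP) signaling in interscapular brown adipose tissue (iBAT) of the mouse. They were taken by name, with no threshold on their values, and all 10 were found among the 27267 gene symbols of the RNA-seq table. They comprise the type I receptors *Bmpr1a* (ALK3), *Bmpr1b* (ALK6), *Acvr1* (ALK2) and *Acvrl1* (ALK1), the type II receptors *Bmpr2* and *Acvr2a*, the co-receptor endoglin (*Eng*), the receptor-activated SMADs *Smad1* and *Smad5*, and the common SMAD *Smad4*. The study sequenced RNA of whole iBAT from 5 wild-type (WT) mice and 5 mice in which the gene of matrix Gla protein (*Mgp*), an extracellular inhibitor of BMPs, was deleted in the whole body (*Mgp*-KO). According to the labels, all mice of both groups were C57BL/6 males of 4 weeks kept on chow, and each library came from 1 mouse as far as the methods tell. Whether the genes that receive the BMP signal had other RNA levels where the inhibitor is missing was the question put to these values.

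A BMP dimer binds a complex of type I and type II receptors. The type II receptor, a kinase that is always active, phosphorylates the type I receptor, and the type I receptor phosphorylates the last serines of SMAD1 or SMAD5. The phosphorylated SMADs join SMAD4, enter the nucleus and act on target genes such as the *Id* family. ALK1 and endoglin are best known from endothelial cells, where they respond to BMP9 and BMP10, whereas ALK3 and BMPR2 are found in many cell types, brown adipose progenitors and adipocytes among them. The abundance of an mRNA says nothing of phosphorylation, so that the activity of the pathway was not measured by these libraries.

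*Smad1* and *Smad5* encode the most similar proteins of the group, and reads of 50 bases have to tell them apart. Their coding sequences, 1395 bases in each case (the transcript of that length of each gene), were identical at 76.4% of aligned positions, and the longest identical run had 17 bases, gaagagaaatgggcaga, which lies at chr8:79372092-79372108 in *Smad1* and at chr13:56723672-56723688 in *Smad5* (GRCm38). The stretch that ends with the codons of the serines phosphorylated by type I receptors is shown for both genes, because it is the site at which the pathway acts on them. Each line gives the last 60 coding bases before the stop codon, 5′ to 3′ on the coding strand, and capitals mark the 14 positions at which the genes differ. The *Smad1* stretch is on the minus strand at chr8:79339652-79339711, and the *Smad5* stretch is on the plus strand at chr13:56737416-56737475, both in an exon.
Smad1: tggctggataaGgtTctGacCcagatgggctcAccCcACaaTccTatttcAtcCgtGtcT
Smad5: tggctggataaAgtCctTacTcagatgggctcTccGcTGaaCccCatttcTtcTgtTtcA
In the GENCODE transcripts of GRCm38, no stretch of 50 bases was shared between any of the 10 genes. For *Smad1*, *Smad4*, *Acvr1* and *Bmpr1b*, no such stretch was shared with any other gene either. The largest shares were 6.98% for *Acvr2a*, whose exons overlap those of *Orc4*, and 3.77% for *Bmpr1a*, which overlaps the predicted gene *Gm17110*. For the other genes the share was below 1%.

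The libraries held 9253793 to 22252260 reads on genes. Those with replicate numbers 1 to 3 held 19616366 to 22252260 reads with 0.771% to 1.72% of them on mitochondrial rRNA, and those numbered 4 and 5 held 9253793 to 13281873 reads with 6.50% to 16.7% on mitochondrial rRNA. *Mgp* was at 576, 489, 466, 1146 and 839 normalized counts in WT 1 to 5, at 0, 0.765 and 0.821 in *Mgp*-KO 1 to 3, while *Mgp*-KO 4 and 5, as labelled, had 500 and 331. These last values go against the labels, so the difference of each tested gene of the group is given for all 10 libraries, within replicates 1 to 3, within replicates 4 and 5, and for WT 1 to 5 against *Mgp*-KO 1 to 3. The last of these sets *Mgp*-KO libraries numbered 1 to 3 against WT libraries of both number ranges, so that genotype and number range are mixed in it. The library labelled WT 2 had 5094 normalized counts of *Xist* and a sum of 3.74 over 4 Y-linked genes, against at most 44.0 of *Xist* elsewhere, which goes against its male label. *Ucp1*, the uncoupling protein that defines brown adipocytes, was at 38421 to 116019 normalized counts in WT and at 2201 to 15641 in *Mgp*-KO, and the 16 endothelial markers were present in each group.

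Divided by the length of the annotated exons, the WT levels of the 10 genes ran from *Eng* at the top to *Bmpr1b* at the bottom. *Eng* was at 455 ± 52.2 normalized counts per kb (SD, n = 5), *Smad4* at 199 ± 33.7, *Smad5* at 126 ± 13.6 and *Bmpr1a* at 104 ± 21.4. Below them stood *Acvrl1* at 96.2 ± 19.5, *Bmpr2* at 77.0 ± 13.5, *Acvr2a* at 68.9 ± 26.7, *Smad1* at 54.0 ± 14.1 and *Acvr1* at 40.8 ± 5.98 normalized counts per kb. *Bmpr1b* was at 1.68 ± 1.54 normalized counts per kb, with 3 to 16 reads per WT library. Among neighbors in this order, the ranges of the 5 WT libraries were apart only between *Eng* and *Smad4*, between *Smad4* and *Smad5*, and between *Acvr1* and *Bmpr1b*. All of the other neighbors overlapped in range, although *Smad1* was above *Acvr1* in each of the 5 WT libraries. Per length, then, the endothelial co-receptor had the highest level, the common SMAD exceeded each receptor SMAD, and of the type I receptors only *Bmpr1b* was near its detection limit of 3 reads. The length was that of all annotated exons of a gene together. Without division by it, *Smad5* (936 normalized counts) was above *Smad4* (740) in the WT means.

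**Figure D1:**
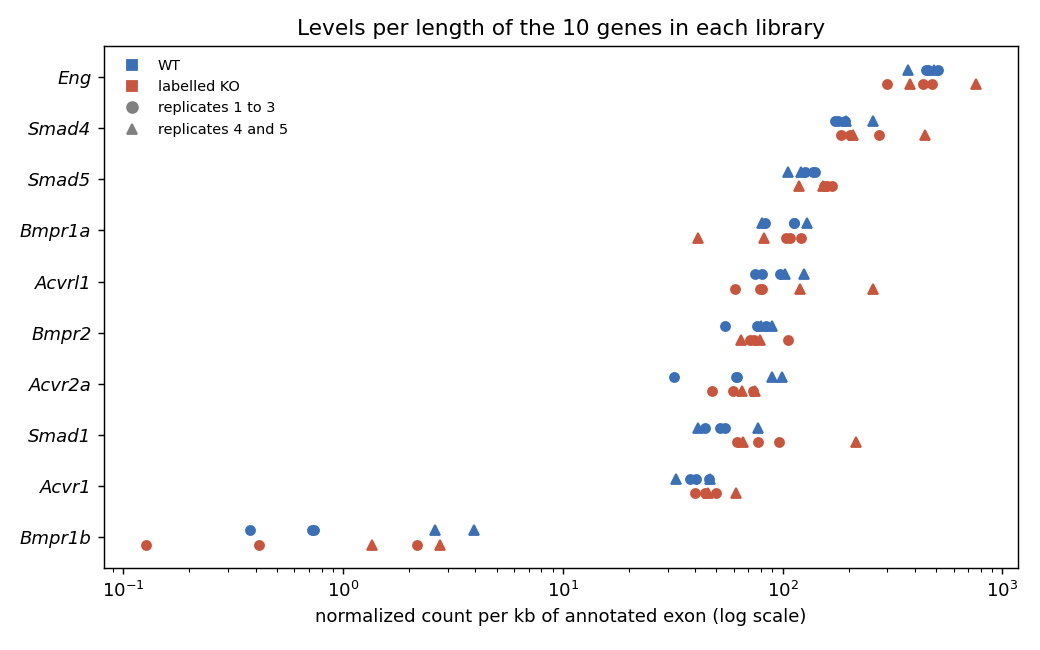
Normalized counts per kb of annotated exon (log scale) of the 10 genes, with 1 point per library, circles for replicates 1 to 3 and triangles for replicates 4 and 5. In WT, *Eng* had the highest level (455 per kb) and *Bmpr1b* the lowest (1.68 per kb), and most of the genes between them overlapped.

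No gene of the group passed the test between the 10 libraries, which had no term for the number range. *Bmpr1b* was under the filter (a mean of at least 10 normalized counts), and of the other 9 genes, 0 had an adjusted p under 0.05 in limma with Benjamini-Hochberg adjustment over 13714 genes, where 9 genes (0.0656%) were called. This background moved with the libraries: it was 0 without WT 2, WT 3, WT 5, *Mgp*-KO 1 or *Mgp*-KO 3, 5 without *Mgp*-KO 5, 34 without WT 4 and 93 without *Mgp*-KO 4. At an unadjusted p under 0.05 stood 1 of the 9 genes, *Smad1*, beside 10.4% of all tested genes. In edgeR and in DESeq2, run on the reads recovered from the values, again 0 of the 9 genes were called (DESeq2 called 1.37% of all genes with reads). The log2 fold changes of *Mgp*-KO against WT on the scale of log2(normalized count + 1) ran from -0.25 to 0.80 with a median of 0.13, and 6 of 9 were above 0, beside a median of 0.03 and 52.7% above 0 over all tested genes. The library labelled *Mgp*-KO 4 often held the extreme value and was the highest of all 10 libraries for 5 of the 10 genes, as it was for 25.8% of all tested genes.

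**Figure D2:**
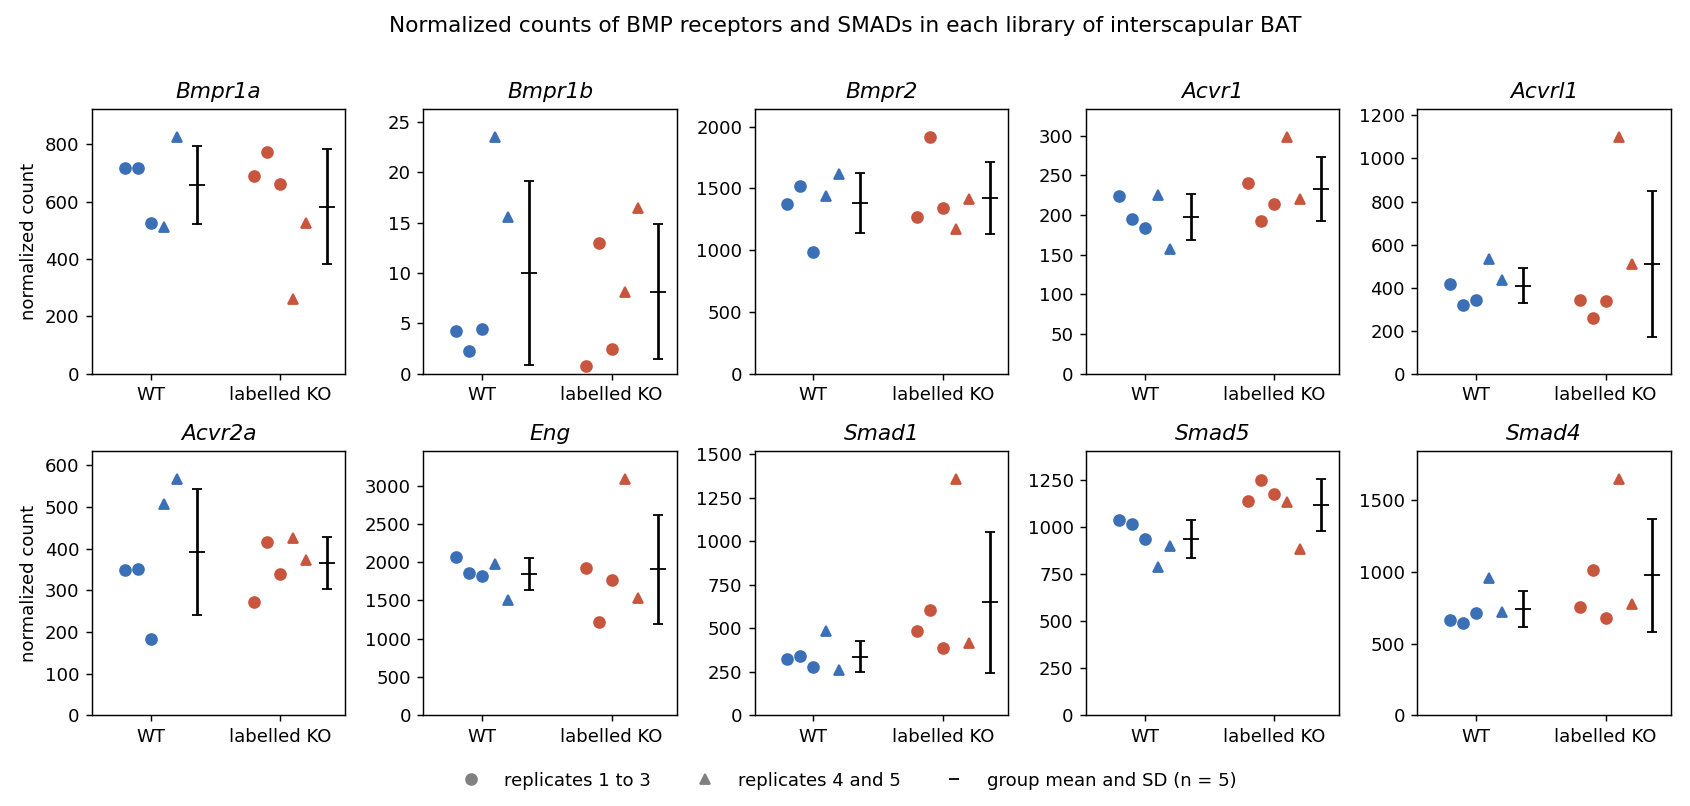
Normalized counts of the 10 genes by library (circles, replicates 1 to 3; triangles, replicates 4 and 5), with the mean and SD of each group of 5. The groups overlapped in every panel, and the library labelled *Mgp*-KO 4 stood highest for *Smad1* (1358), *Smad4* (1650), *Acvr1* (298), *Acvrl1* (1098) and *Eng* (3085).

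*Smad1* (ENSMUSG00000031681.16, chr8:79338395-79399518, minus strand), a receptor SMAD, had the largest difference of the group. It was at 325, 344, 279, 484 and 260 normalized counts in WT 1 to 5 and at 482, 604, 388, 1358 and 415 in *Mgp*-KO 1 to 5. All of the *Mgp*-KO values were above those of 4 of the WT libraries, but WT 4 lay above *Mgp*-KO 1, 3 and 5, so that the groups overlapped. The fold was 1.75 with a 95% interval of 1.06 to 2.86 (log2 0.80, SE 0.33), and limma gave an adjusted p of 0.414 (unadjusted 0.0304). Within replicates 1 to 3, the groups were apart, at 316 ± 33.5 in WT and 491 ± 108 normalized counts in *Mgp*-KO (SD, n = 3 each), with *Mgp*-KO higher, as were 15.5% of all tested genes. The fold there was 1.53 (95% interval 1.14 to 2.06) with an adjusted p of 0.113 in limma, where 3.54% of genes were called. DESeq2 on the recovered reads of the same 6 libraries called *Smad1* (log2 0.63, SE 0.21, adjusted p = 0.0375), as it did 5.24% of the genes with reads, and it called no other gene of the group. Within replicates 4 and 5 the log2 fold change of 1.08 had a standard error of 0.61, and limma called 0% of genes. Without *Mgp*-KO 4 it was 0.49 (SE 0.22, adjusted p = 0.376), and with *Mgp*-KO 1 to 3 against WT 1 to 5 it was 0.55 (SE 0.24, adjusted p = 0.251, where 1.95% of genes were called and 0 of the 9). The difference thus had the same sign in each of these comparisons and was smaller where *Mgp*-KO 4 was left out.

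*Smad5* (ENSMUSG00000021540.16, chr13:56703010-56742377, plus strand), the other receptor SMAD measured here, was at 1039, 1018, 934, 787 and 900 normalized counts in WT and at 1141, 1251, 1178, 1132 and 884 in *Mgp*-KO. The values of 4 *Mgp*-KO libraries lay above all WT values, and *Mgp*-KO 5 lay among the lower WT values. The fold was 1.19 (95% interval 0.935 to 1.52, adjusted p = 0.624 in limma). In replicates 1 to 3, *Smad5* was at 997 ± 55.2 in WT and 1190 ± 55.8 in *Mgp*-KO, again without overlap, with a log2 fold change of 0.26 (SE 0.11) and an adjusted p of 0.212. *Smad1* and *Smad5* were the 2 of 9 genes at an unadjusted p under 0.05 in that comparison, beside 22% of all tested genes. *Mgp*-KO 1 to 3 were also above all 5 WT libraries (fold 1.28, 95% interval 1.01 to 1.61, adjusted p = 0.245), as were, in that direction, 9.79% of tested genes. The log2 fold change within replicates 4 and 5 was 0.25 (SE 0.31). The 95% interval of the 10 libraries leaves room for a fold of up to 1.52, so that a similar level in both groups was not shown either.

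*Smad4* (ENSMUSG00000024515.13, chr18:73639009-73703780, minus strand), the partner shared with the TGF-β branch, was at 665, 642, 715, 956 and 720 normalized counts in WT and at 754, 1017, 682, 1650 and 778 in *Mgp*-KO. *Mgp*-KO 2 and 4 were above all WT libraries, and the other 3 lay within the WT range. The fold of 1.26 (95% interval 0.871 to 1.83, adjusted p = 0.680) became 1.09 (0.834 to 1.43, adjusted p = 0.849) without *Mgp*-KO 4. On the log2 scale the difference was 0.26 (SE 0.16) within replicates 1 to 3, 0.45 (SE 0.43) within replicates 4 and 5, and 0.14 (SE 0.19) for *Mgp*-KO 1 to 3 against WT 1 to 5. *Smad4* followed *Smad1* across the libraries: with the means of replicates 1 to 3 and of 4 and 5 subtracted, the Pearson correlation of their log2 values was 0.94 over 10 libraries, the highest Pearson value of the 36 pairs of the 9 genes, and the Spearman correlation was 0.84. In both genes the library labelled *Mgp*-KO 4 was the highest and WT 4 the highest of WT.

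Among the type I receptors, *Bmpr1a* (ENSMUSG00000021796.15, chr14:34410734-34503341, minus strand), a main receptor of BMP2 and BMP4, was at 719, 717, 527, 510 and 824 normalized counts in WT and at 689, 773, 662, 261 and 525 in *Mgp*-KO. *Mgp*-KO 4 alone lay below the WT range, and the other 4 lay within it. The fold was 0.842 (95% interval 0.544 to 1.30, adjusted p = 0.820 in limma), and without *Mgp*-KO 4 it was 1.01 (0.753 to 1.36, adjusted p = 0.986). Within replicates 1 to 3 the log2 fold change was 0.12 (SE 0.15) and within replicates 4 and 5 it was -0.81 (SE 0.45), while *Mgp*-KO 1 to 3 against WT 1 to 5 gave 0.12 (SE 0.20). The difference between the values of replicates 4 and 5 and of 1 to 3, -0.93 with a 95% interval of -1.91 to 0.04, did not pass the interaction test (adjusted p = 0.483), in which 0.00729% of genes were called.

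*Acvr1* (ENSMUSG00000026836.15, chr2:58388644-58567157, minus strand), a receptor of BMP6 and BMP7, was at 225, 195, 184, 226 and 157 normalized counts in WT and at 240, 193, 213, 298 and 220 in *Mgp*-KO. *Mgp*-KO 1 and 4 stood above WT, and the other 3 stood inside its range. The fold was 1.18 (95% interval 0.895 to 1.55, adjusted p = 0.697). The log2 fold change of *Acvr1* was 0.10 (SE 0.15) within replicates 1 to 3, 0.44 (SE 0.38) within replicates 4 and 5, and 0.13 (SE 0.18) for *Mgp*-KO 1 to 3 against WT 1 to 5. *Bmpr1b* (ENSMUSG00000052430.15, chr3:141837136-142169425, minus strand) had 6, 3, 6, 16 and 9 reads in WT and 1, 17, 3, 5 and 14 in *Mgp*-KO. The reads of *Bmpr1b* spread widely within each group, and the groups overlapped (two-sided exact permutation test of the 10 libraries, p = 0.738).

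*Acvrl1* (ENSMUSG00000000530.16, chr15:101128522-101145336, plus strand), the endothelial type I receptor ALK1, was at 416, 321, 345, 532 and 436 normalized counts in WT and at 345, 260, 338, 1098 and 511 in *Mgp*-KO. The sign of its difference turned with the libraries used. Over 10 libraries the log2 fold change was 0.13 (SE 0.34, adjusted p = 0.930), whereas without *Mgp*-KO 4 it was -0.19 (SE 0.22, adjusted p = 0.807). It was -0.20 (SE 0.17, adjusted p = 0.523) within replicates 1 to 3 and 0.64 (SE 0.43) within replicates 4 and 5. For *Mgp*-KO 1 to 3 against WT 1 to 5 it was -0.37 (SE 0.20, adjusted p = 0.364), a value that also takes in the difference between the number ranges given next. Replicates 4 and 5 of both genotypes were above all of replicates 1 to 3, at 644 ± 305 (n = 4) against 338 ± 50.2 normalized counts (n = 6). Across genotypes this difference was 0.84 on the log2 scale (SE 0.24, adjusted p = 0.0173 in limma), and 38.2% of tested genes were called between these sets. Groups without overlap between the sets were found for 25.2% of tested genes. *Acvrl1* was the only gene of the group called between the sets, and *Acvr2a*, at 0.58 (SE 0.23), had an adjusted p of 0.0627. The replicate numbers do not say what the sets are, and depth and the share of mitochondrial rRNA differed between them as given above; their part in these values was not tested.

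*Bmpr2* (ENSMUSG00000067336.6, chr1:59763400-59879014, plus strand), the type II receptor dedicated to BMPs, was at 1370, 1516, 984, 1439 and 1616 normalized counts in WT and at 1272, 1912, 1338, 1169 and 1416 in *Mgp*-KO. Only *Mgp*-KO 2 was outside the WT range, above it. The log2 fold change was 0.04 with a 95% interval of -0.39 to 0.46 (adjusted p = 0.966), so that the interval of *Bmpr2* was among the narrower ones of the group. *Acvr2a* (ENSMUSG00000052155.5, chr2:48814109-48903269, plus strand), which serves activins as well as BMPs, was at 348, 352, 182, 509 and 568 in WT and at 272, 415, 340, 426 and 373 in *Mgp*-KO. All *Mgp*-KO values of *Acvr2a* lay inside the WT range, and the fold was 0.989 (95% interval 0.640 to 1.53, adjusted p = 0.989). For both type II receptors the log2 fold change was above 0 within replicates 1 to 3 (0.22 and 0.26) and below 0 within replicates 4 and 5 (-0.25 and -0.43), with neither interaction called (adjusted p = 0.593 for *Bmpr2* and 0.538 for *Acvr2a*). In replicates 4 and 5 both *Mgp*-KO values of each were below both WT values, as for 21.3% of tested genes. For *Mgp*-KO 1 to 3 against WT 1 to 5 the log2 fold changes were 0.12 (SE 0.21) and -0.11 (SE 0.34).

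**Figure D3:**
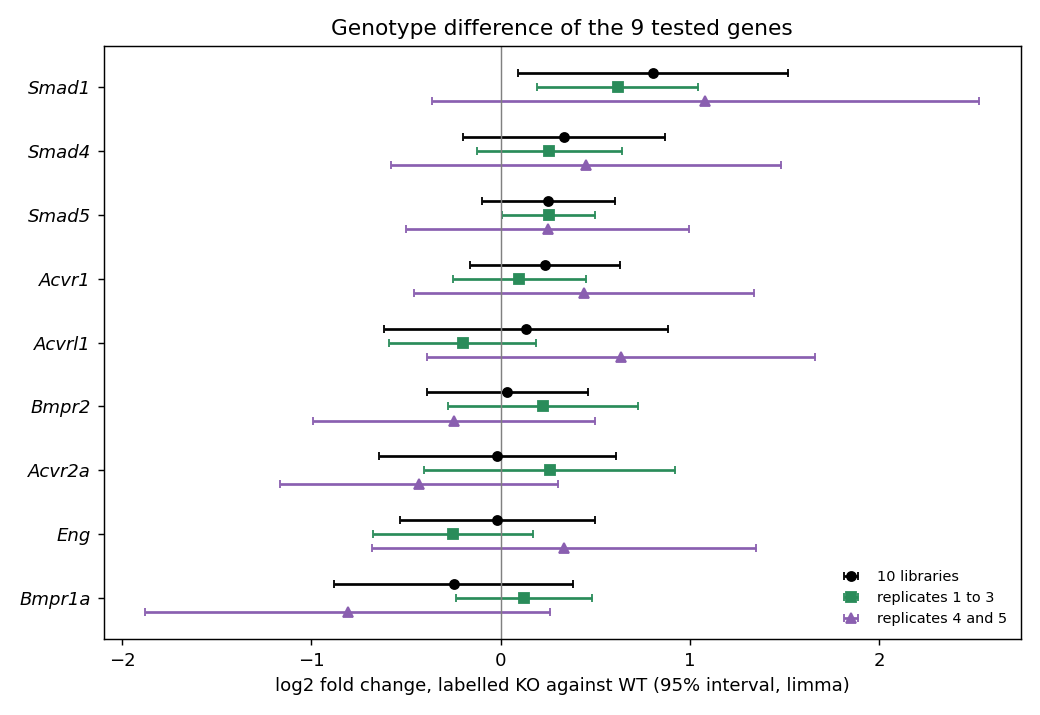
Log2 fold changes of *Mgp*-KO against WT with 95% intervals from limma for the 9 tested genes, over 10 libraries (black circles), replicates 1 to 3 (green squares) and replicates 4 and 5 (purple triangles). Most intervals include 0; those of *Smad1* over 10 libraries (0.09 to 1.52) and of *Smad1* and *Smad5* within replicates 1 to 3 do not, at unadjusted p, and no gene passed the adjusted threshold.

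*Eng* (ENSMUSG00000026814.16, chr2:32646595-32682669, plus strand) encodes endoglin, which presents BMP9 to ALK1. It was at 2064, 1859, 1814, 1973 and 1509 normalized counts in WT and at 1929, 1212, 1763, 3085 and 1537 in *Mgp*-KO. *Mgp*-KO 4 lay above WT, *Mgp*-KO 2 below it, and the other 3 within its range. The fold of 0.989 (95% interval 0.692 to 1.41, adjusted p = 0.986) thus rests on values that spread more in *Mgp*-KO (SD 712) than in WT (SD 211). Without *Mgp*-KO 4, the SD in *Mgp*-KO was 310. The log2 fold change of *Eng* was -0.25 (SE 0.18) within replicates 1 to 3, 0.34 (SE 0.43) within replicates 4 and 5, and -0.19 (SE 0.19) for *Mgp*-KO 1 to 3 against WT 1 to 5, and none of these was called.

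Since *Eng* and *Acvrl1* are largely endothelial, their values were set against 16 other endothelial markers, among them *Cdh5*, *Pecam1* and *Kdr*. In whole tissue, fewer cells of a type and less RNA per cell cannot be told apart. The summed level of the markers was 25251 to 42696 normalized counts in WT and 29360 to 77594 in *Mgp*-KO, with the highest value in the library labelled *Mgp*-KO 4 and with no marker at a mean under 5. All 16 had a log2 fold change above 0 over 10 libraries (median 0.50), 0 of them were called and 1 had an unadjusted p under 0.05. The median was 0.20 within replicates 1 to 3, where 13 of 16 were above 0 (*Tek*, *Emcn* and *Vwf* were not), and 0.90 within replicates 4 and 5, where 16 were. The sums did not differ beyond the spread (two-sided exact permutation test, p = 0.143). *Eng* made up 6.92%, 6.58%, 7.19%, 4.62% and 5.82% of the endothelial sum in WT and 5.51%, 4.13%, 5.05%, 3.98% and 3.76% in *Mgp*-KO. The log2 ratio of *Eng* to the markers differed by -0.47 between *Mgp*-KO and WT (6.22% ± 1.03 against 4.49% ± 0.753, SD, n = 5; two-sided exact permutation test, p = 0.0317, or 0.0635 adjusted over the 2 ratios tested, which does not pass), and 3 of the 5 *Mgp*-KO values were below all of WT. Over the 10 libraries, most of this value came from the denominator, as the log2 difference was 0.45 for the sum and -0.02 for *Eng* itself. Left out in turn, WT 3, *Mgp*-KO 2, *Mgp*-KO 4 or *Mgp*-KO 5 each raised the exact p to 0.0556, and with *Mgp*-KO 1 to 3 alone it was 0.107 (log2 difference -0.34). Within replicates 1 to 3 the log2 difference was -0.50 and the groups were apart, which is the exact minimum of p = 0.1 for 3 against 3. There the log2 difference was 0.25 for the sum and -0.25 for *Eng* itself.

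*Acvrl1* made up 1.40%, 1.14%, 1.37%, 1.25% and 1.68% of the same sum in WT and 0.985%, 0.886%, 0.969%, 1.41% and 1.25% in *Mgp*-KO. *Mgp*-KO 1 to 3 were below all WT libraries, whereas *Mgp*-KO 4 and 5 were among them. The log2 difference was -0.32 (two-sided exact permutation test, p = 0.0952, also after adjustment over the 2 ratios). Within replicates 1 to 3 it was -0.45 (exact p = 0.1, the smallest for 3 against 3). With *Mgp*-KO 1 to 3 against WT 1 to 5, which mixes the number ranges, it was -0.52 (exact p = 0.0179, the smallest that 3 against 5 allows), and without *Mgp*-KO 4 it was -0.42 (exact p = 0.0397), both p-values without adjustment. Over the 10 libraries, the log2 difference was 0.13 for *Acvrl1* itself and 0.45 for the sum. Within replicates 1 to 3 these values were -0.20 and 0.25.

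**Figure D4:**
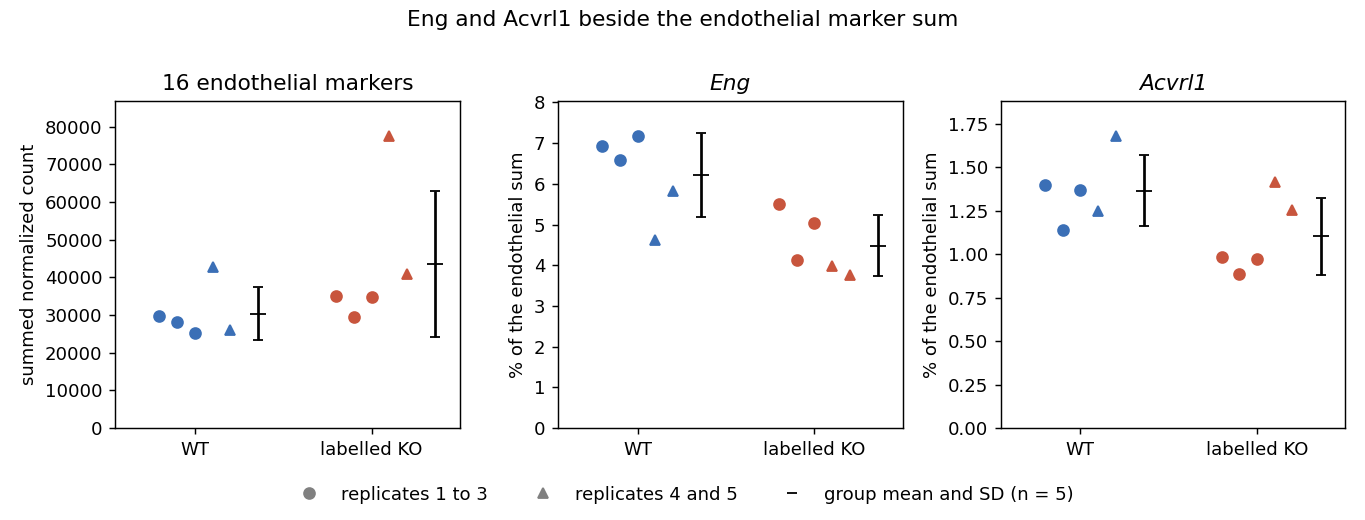
Summed normalized counts of 16 endothelial markers, and *Eng* and *Acvrl1* as a percentage of that sum, by library (circles, replicates 1 to 3; triangles, replicates 4 and 5), with the mean and SD of each group of 5. *Eng* was at 4.62% to 7.19% of the sum in WT and at 3.76% to 5.51% in *Mgp*-KO.

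The summed markers of other cell types also varied between these libraries, and their part in the values above was not tested. The 12 brown adipocyte markers summed to 217834 to 418892 normalized counts in WT and 152345 to 309181 in *Mgp*-KO, with 1 of 12 log2 fold changes above 0. The 4 lymphatic endothelial markers in the table summed to 208 to 358 in WT and 334 to 537 in *Mgp*-KO (log2 difference 0.49, two-sided exact permutation test, p = 0.0159, not adjusted over the marker lists). *Flt4* was the most abundant of them, and the median of their log2 fold changes was 0.26 over 10 libraries and -0.29 within replicates 1 to 3, with *Flt4* alone above 0 in the latter. The 5 erythroid markers summed to 3009 to 26397 in the other libraries and to 101447 in *Mgp*-KO 4. The 9 skeletal muscle markers summed to 31677 in *Mgp*-KO 2 and 35264 in *Mgp*-KO 5, and to 35.3 to 6116 in the other 8 libraries. Two-sided exact permutation tests of the WT and *Mgp*-KO sums gave p = 0.119 (brown adipocyte), 0.516 (erythroid) and 0.825 (skeletal muscle), also not adjusted.

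The other genes of the pathway, from ligands to targets, were also not called by limma over 10 libraries. Of 71 listed genes, 68 were in the table and 58 were tested, and 0 of them passed in limma (smallest adjusted p 0.0647, 5 at an unadjusted p under 0.05). DESeq2 on the recovered reads called 2 of them, *Bmp4* (log2 1.42, adjusted p = 0.0428) and *Id4* (adjusted p = 0.000425), as it did 354 of the 13714 tested genes. In 3 tested genes all *Mgp*-KO values were above all WT values, *Id4*, *Bmp4* and *Bambi*, and in 1, *Bmper*, below, while 3.5% of all tested genes had groups that did not overlap (1.39% higher, 2.11% lower). Of the 8 tested ligands, *Bmp4* was at 4.49 to 15.0 normalized counts in WT and 17.3 to 34.4 in *Mgp*-KO (log2 1.41, SE 0.39, adjusted p = 0.203 in limma). *Gdf5* was at 132 to 541 and 45.3 to 1179 (0.51, SE 0.76). Of the 11 tested antagonists, *Bmper*, a secreted BMP-binding protein, was at 110 to 145 in WT and 72.7 to 100.2 in *Mgp*-KO (log2 -0.53, SE 0.18, adjusted p = 0.298). The log2 fold change was 0.79 (SE 0.45) for *Fstl3* and 0.70 (SE 0.43) for *Fst*, both inhibitors of activins. *Nog* (noggin) was under the filter, at 0 to 2.25 normalized counts in WT and 3.06 to 6.78 in *Mgp*-KO, values near the limit of 3 reads.

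At the level of receptors, 5 further type I and type II receptors of the TGF-β family were tested and none was called. The largest differences among them were those of the activin receptors *Acvr2b* (log2 0.51, SE 0.31) and *Acvr1b* (0.39, SE 0.27). *Bambi*, a decoy receptor without a kinase, was at 31.1 to 42.6 normalized counts in WT and 49.2 to 82.6 in *Mgp*-KO (log2 0.66, SE 0.23, adjusted p = 0.301). The inhibitory *Smad6*, itself a target of BMP signaling, had a log2 fold change of -0.55 (SE 0.34, adjusted p = 0.616) over 10 libraries. In replicates 1 to 3 *Smad6* was lower in *Mgp*-KO by the test, at -1.05 (SE 0.18, adjusted p = 0.0296), while in replicates 4 and 5 it was at 0.20. The co-repressor *Skil* (SnoN) was also lower in replicates 1 to 3, at -1.16 (SE 0.24, adjusted p = 0.0477), and was at -0.98 in replicates 4 and 5 and at -1.09 over 10 libraries (adjusted p = 0.219). *Smad9*, the remaining receptor SMAD of the BMP branch, was at 3.46 to 28.6 normalized counts in WT and 1.62 to 47.4 in *Mgp*-KO (log2 0.56, SE 0.79).

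Of 12 tested target genes of BMP and SMAD, 9 had a log2 fold change above 0 (median 0.31), beside 52.7% of all tested genes. Replicates 1 to 3 gave a median of -0.17, and replicates 4 and 5 one of 0.99. *Id4*, an inhibitor of basic helix-loop-helix factors, was at 31.6 to 47.9 normalized counts in WT and 64.5 to 135 in *Mgp*-KO (log2 1.31, SE 0.26, adjusted p = 0.0647 in limma). In replicates 1 to 3 the *Id4* difference was 1.60 (SE 0.23) and passed the test (adjusted p = 0.0192). *Id1*, *Id2* and *Id3*, the usual readouts of the pathway, had log2 fold changes of 0.08 (SE 0.32), 0.22 (SE 0.41) and 0.50 (SE 0.29), none of them called. *Id1* and *Id2* were at -0.32 and -0.48 within replicates 1 to 3 and at 0.68 and 1.27 within replicates 4 and 5. In the same order of replicates, *Id3* was at 0.21 and 0.93. *Atoh8* had a log2 fold change of 0.74 (SE 0.59). *Hfe2*, *Fkbp1a* and the remaining genes of the lists were not called.

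**Figure D5:**
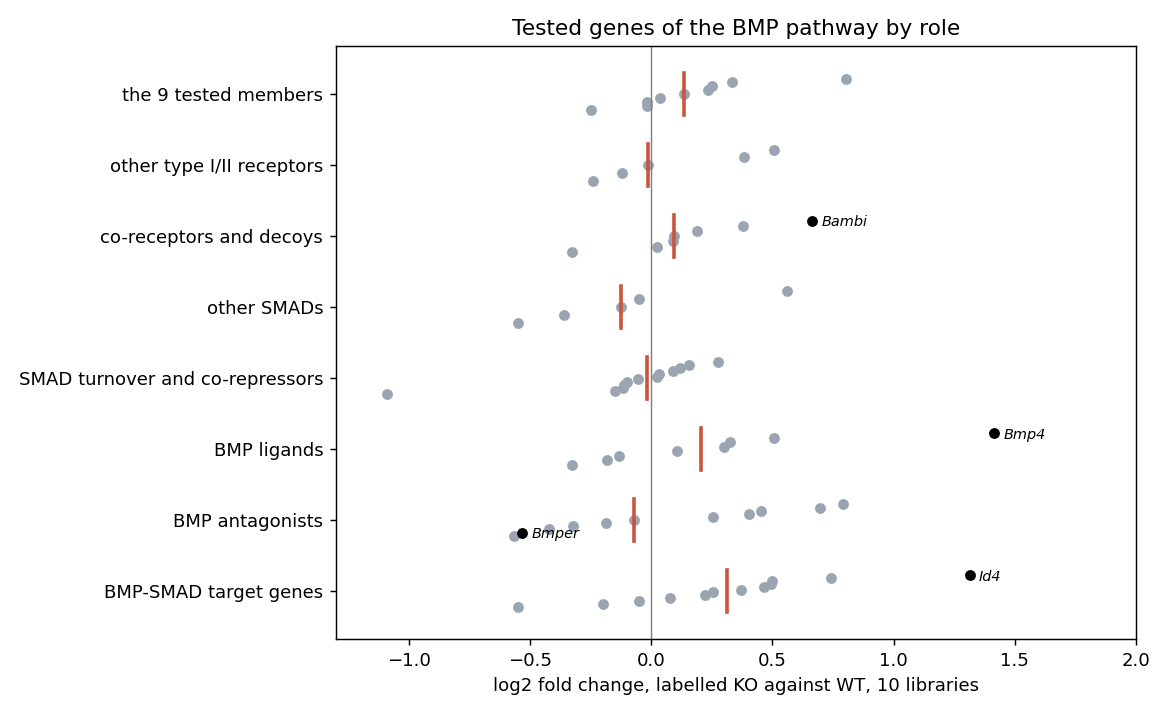
Log2 fold changes of *Mgp*-KO against WT over 10 libraries for the 9 tested receptors and SMADs and for the tested genes of 7 pathway lists; a red line is the median of each list. Black points with names are genes whose groups did not overlap (*Id4* 1.31, *Bmp4* 1.41, *Bambi* 0.66, *Bmper* -0.53), and none passed the adjusted threshold in limma, whereas DESeq2 called *Id4* and *Bmp4*.

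For each of the 9 genes, the tested genes with the most similar profile were found by the Pearson correlation of log2(normalized count + 1) over the 10 libraries, with the means of replicates 1 to 3 and of 4 and 5 subtracted. These values share their libraries, describe the 10 libraries only and were picked as the highest of 13714, so no p is given. *Smad1* was most like *Pxn* (0.99), *Osmr* and *Prkcd*, and *Pxn* was still at 0.97 without the 2 libraries farthest from the median, *Mgp*-KO 4 and WT 5. *Smad5* was most like *Sntb2* (0.98), *Vprbp* and *Il20rb*, and *Smad4* like *Foxn3* (0.98), *Rrs1* and *Adra1a*. *Eng* was most like *Nos3* (0.99), the endothelial nitric oxide synthase, *Vasp* and *Sptlc2*. For *Acvrl1* these were *Bicc1* (0.98), *Msn* and *Tnfaip1*. *Acvr1* was most like *Kazn* (0.99), *Asap2* and *Tie1*, an endothelial receptor and itself one of the endothelial markers. *Bmpr1a* was most like *Abcc9* (0.98), a potassium channel subunit of mural cells, *Tmed7* and *Azi2*, but *Abcc9* fell to 0.80 without *Mgp*-KO 4 and WT 5. With the means of the number ranges kept in, the correlation was much lower for some of these genes, at 0.17 for *Il20rb* with *Smad5*, 0.47 for *Adra1a* with *Smad4*, 0.48 for *Asap2* with *Acvr1*, and 0.10 for *Tmed7* and 0.40 for *Azi2* with *Bmpr1a*. *Bmpr2* was most like *Fpgt* (0.98), *Sec63* and *Polr3f*. Among the genes most like *Acvr2a* were *Fmr1* (0.96) and *Kmt5b*. Between the genes of the group, *Acvrl1* and *Eng* had a correlation of 0.93 (Spearman 0.93), *Bmpr2* and *Acvr2a* one of 0.86 (Spearman 0.81), and *Bmpr1a* and *Acvrl1* one of -0.86 (Spearman -0.77). *Bmpr1a* and *Bmpr2* were at 0.69 (Spearman 0.87) and *Acvr1* and *Acvrl1* at 0.82 (Spearman 0.77).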

How the data were processed

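The deposited values are a signal per gene, normalized counts: per the methods, the authors mapped single-end reads of 50 bases to mm10 with STAR, counted them on genes and divided them by DESeq2 size factors. The annotation release and strand setting were not given in the sources used here. All values (100%, within 0.01 reads) fell on whole multiples of what 1 read is worth, which gave back the reads. limma 3.58.1 in R 4.3.3 (trended eBayes) was fitted to log2(normalized count + 1) for genes with a mean of at least 10, without a block, with Benjamini-Hochberg adjustment and a threshold of 0.05. edgeR 4.0.16 and DESeq2 1.42.0 were run on the reads, and all were tested on simulated data. Single ratios were compared by exact permutation. Coordinates and transcripts are from GENCODE (GRCm38). P-values set a difference against the spread between the libraries of a group. Where both number ranges are pooled without a term, this spread also holds the difference between them. Read floors cover counting error only.

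All 10 genes were named, with *Mgp* and, of each pathway list, the genes past the threshold or without overlap, the 2 with the largest log2 fold changes, and the 3 genes most similar to each member (1 of them is not reported here); *Id1*, *Id2*, *Id3*, *Ucp1*, *Pecam1*, *Kdr*, *Tek*, *Emcn*, *Vwf* and *Xist* are outside this rule and were named after their values were seen. The genes and lists were chosen with earlier results of these data known. Alternatives covered pseudocount, filter, scaling, replicate or set terms, tool and each library.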

Additional observations from a re-analysis of the deposited data

Results flagged for a closer look

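In 2 of the 20 groups of 5 values examined (10 genes in each group of mice), 1 library stood far from the other 4. *Smad1* was at 1358 normalized counts in the library labelled *Mgp*-KO 4 and at 388 to 604 in the other *Mgp*-KO libraries. *Smad4* was at 956 normalized counts in WT 4 and at 642 to 720 in the other WT libraries. By chance about 1 in 20 such groups would be marked.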

How the results depend on the processing

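Over 23 alternatives, 0 of the 9 genes were called in any, with a smallest adjusted p of 0.0559 to 0.689 per setting. Within replicates 1 to 3, DESeq2 called 1 (*Smad1*). The log2 fold changes of *Smad1* (0.49 to 0.95), *Smad5*, *Smad4* and *Acvr1* kept their sign throughout. Signs turned in 17 of 207 values, the causes of which were not tested: for *Bmpr1a* with *Mgp*-KO 1 to 3 only (0.12) and without *Mgp*-KO 4 (0.018); for *Acvrl1* in the same settings (-0.37 and -0.19); for *Bmpr2* without WT 3 (-0.082) or *Mgp*-KO 2 (-0.076); for *Acvr2a* without WT 4 (0.10), WT 5 (0.14), *Mgp*-KO 1 (0.085) or *Mgp*-KO 3 (0.0047); and for *Eng* in edgeR (0.041), in DESeq2 (0.046, or 0.026 with a set term) and without WT 1 (0.026), WT 4 (0.0097), *Mgp*-KO 2 (0.13) or *Mgp*-KO 5 (0.043). Leaving out each library gave -0.37 to 0.02 for *Bmpr1a*, -0.08 to 0.10 for *Bmpr2*, -0.19 to 0.33 for *Acvrl1*, -0.27 to 0.14 for *Acvr2a* and -0.21 to 0.13 for *Eng*.

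Over all genes, 9 were called, against 29 with a pseudocount of 10, 1 without the filter, 15 with a mean of at least 50, 34 after quantile normalization, 324 with a set term, 3 in edgeR, 374 in DESeq2, 1152 in DESeq2 with a set term, 267 with *Mgp*-KO 1 to 3 only and 0 to 93 without single libraries. The methods speak of pairs of mice, but no source says that a shared number marks a pair. Deviations of same-numbered WT and *Mgp*-KO libraries correlated at 0.056 to 0.53 (mean 0.39), beside a mean of 0.42 for other numbers of the same set. After set means were subtracted, these means were -0.02 and 0.02 (same-numbered at most 0.22). The values thus did not show pairing by number. With the replicate block, 270 genes were called in limma and 222 in edgeR, and *Smad1* had adjusted p-values of 0.0559 and 0.0591. With the set term, *Smad1* had adjusted p-values of 0.178 in limma and 0.0626 in DESeq2. For the *Eng* ratio (-0.47) a replicate block gave -0.47 with an exact p of 0.0625, the smallest possible, and *Mgp*-KO 1 to 3 gave -0.34; single libraries left out gave -0.57 to -0.41. For the *Acvrl1* ratio (-0.32) the block gave an exact p of 0.125, and the other values were -0.52 for *Mgp*-KO 1 to 3 and -0.42 to -0.24.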
